A study of Homo sapiens with 6 samples.

Results

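The mitochondrially encoded genes of respiratory complexes I, III and IV were followed in ovarian cancer cells depleted of EIF5A2. The members are 10 genes, out of 58825 genes in the table and 37 genes of the mitochondrial genome. They were picked by symbol through their Ensembl identifiers and not by a rule on measured values. Earlier results of these data were known when they were chosen. SKOV3, a human ovarian cancer cell line, received, by transient transfection, either a control siRNA (NC, n = 3) or an siRNA against EIF5A2 (si-EIF5A2, n = 3), and RNA was taken 48 h later according to the series description. EIF5A2 is an isoform of the translation factor that carries hypusine, and the comparison asked which transcripts differ when it is depleted. Both groups received the transfection reagent, and no untransfected cells were included. The sources used here do not say that the 3 libraries of a group came from separate cultures, so p-values measure the spread between these libraries, which may be technical.

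Mitochondrial DNA is a small circle in the mitochondrial matrix that codes for a few subunits of the respiratory chain, the ribosomal RNAs and tRNAs needed to translate them. Each strand is copied into a long precursor that is cut at the tRNAs, so most of the mRNAs are released from a shared transcript and their levels are set afterwards by stability. Most of the mRNAs receive short poly(A) tails, which in several genes also complete the stop codon. The other subunits, and the proteins that copy, transcribe, process and translate the mitochondrial genome, are made from nuclear genes.

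Of the 10 members, 6 code for subunits of complex I (MT-ND1 to MT-ND6), 1 for cytochrome b of complex III (MT-CYB) and 3 for the catalytic core of complex IV (MT-CO1 to MT-CO3). All of them are single-exon genes, and 9 have the sequence of the plus strand of the reference, which is copied from the heavy strand. MT-ND6 is the exception and lies on the minus strand. In the GRCh38 build, MT-ND5 covers chrM 12337 to 14148 and MT-ND6 covers chrM 14149 to 14673, so that the coding sequences end against each other on opposite strands. The 30 bases that close 5 of the members are shown because the genes differ in how they stop. Sequences are from GENCODE release 29, are read 5′ to 3′ along the mRNA, and carry the bases of the stop codon present in the gene in capitals.
MT-ND4: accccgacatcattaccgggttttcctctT
MT-CYB: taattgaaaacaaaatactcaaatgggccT
MT-ND5: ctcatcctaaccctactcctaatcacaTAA
MT-ND6: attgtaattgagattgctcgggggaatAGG
MT-CO1: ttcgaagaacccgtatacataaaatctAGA
In 6 members (MT-ND1, MT-ND2, MT-ND3, MT-ND4, MT-CYB and MT-CO3) the gene ends within the stop codon, and the remaining bases come from the tail. MT-ND5, MT-ND6, MT-CO1 and MT-CO2 hold a complete one.

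Libraries held 46900204 to 74142267 estimated counts. Values are given as CPM (the count per megacount of the library) scaled by edgeR's TMM library sizes, and per kilobase of gene where genes are compared with each other. EIF5A2 itself was 27.8, 29.8 and 29.9 CPM in NC and 2.76, 4.04 and 4.27 CPM in si-EIF5A2, which is 12.7% of NC. Correlations of log2 CPM between libraries were 0.964 to 0.974 within groups and 0.929 to 0.938 between them. Of 8 epithelial and SKOV3 markers listed, 7 were tested, and KRT8 (349 to 659 CPM) and KRT18 (297 to 457 CPM) were the highest. ERBB2 was 42.1 to 48.6 CPM. EPCAM (1.15 to 1.68 CPM), KRT19 (2.24 to 3.85 CPM) and CD24 (3.05 to 5.11 CPM) were low. MUC1, at most 0.113 CPM, was not tested. KRT8 and KRT7 were called lower in si-EIF5A2 (log2 fold change -0.69 and -0.87, edgeR adjusted p = 0.000536 and 0.000101). The 11 markers of leukocytes, endothelium, fibroblasts and erythrocytes summed to at most 59.7 CPM in an NC and 57.9 CPM in an si-EIF5A2 library. Nearly all of it was CD68, and the defining leukocyte markers PTPRC and CD3E were at 0 in every library. DCN, LUM, COL3A1 and HBB had counts only in si-EIF5A2 replicate 3, at 0.229, 0.229, 0.709 and 0.146 CPM. In that library 3 fragments correspond to 0.231 CPM. PECAM1 was 1.62 to 2.04 CPM in NC and 0 to 0.667 CPM in si-EIF5A2, and missed the test (edgeR adjusted p = 0.0941).

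Per kilobase, the 3 complex IV genes stood highest in the NC libraries, at 9329 CPM per kb for MT-CO2, 8972 for MT-CO1 and 8345 for MT-CO3 (means of 3 libraries). MT-ND4 (5095), MT-CYB (4909), MT-ND2 (4059) and MT-ND1 (3826) followed, then MT-ND3 (2611), MT-ND5 (1040) and MT-ND6 (858). Library ranges overlapped between the neighbours MT-CO2 and MT-CO1, MT-CO1 and MT-CO3, MT-ND4 and MT-CYB, and MT-ND2 and MT-ND1, and were apart for the other neighbours. In the si-EIF5A2 libraries MT-CO1 (7536 CPM per kb) and MT-CO2 (7391) were again not separated, and the ranges of MT-ND5 (994) and MT-ND6 (836), apart in NC, overlapped.

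**Figure D1:**
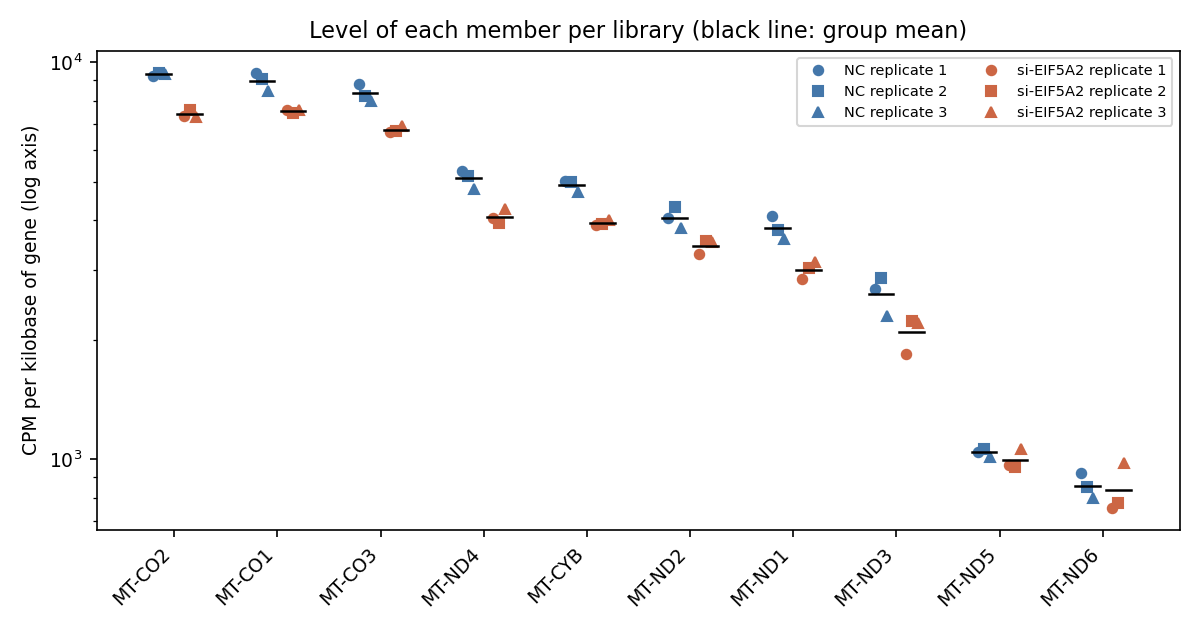
Level of each member in CPM per kilobase (log axis), with 1 point per library, blue for NC and orange for si-EIF5A2, and a black line at the group mean. The blue points lie above the orange ones for 8 genes, and the groups overlap for MT-ND5 and MT-ND6.

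The question for each member was whether its RNA level differed between the groups. Of the member mRNAs, 7 were modestly lower after EIF5A2 depletion, at 78.5% to 85.0% of NC, and spanned complexes I, III and IV. MT-ND5 and MT-ND6, the neighbours on opposite strands, were at 95.6% and 97.5% of NC, with overlapping groups. With edgeR's quasi-likelihood test and Benjamini-Hochberg adjustment over 16208 genes, 7 of 10 members were lower at an adjusted p under 0.05, where 18.9% of all genes tested were lower, and 0 members were higher, against 18.0% of all genes. The groups did not overlap for 8 members, all of them lower in si-EIF5A2, and 26.5% of all genes tested were lower and 24.7% higher without overlap. The median log2 fold change was -0.31 over the members and -0.01 over all genes tested.

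A stricter rule asked in addition for a fold change over 1.5, and by it no member was called, while 24.6% of genes were called. Of the 10 members, 8 had an unadjusted p under 0.05 in edgeR. DESeq2 called 0 at the stricter rule, by which it called 4338 genes of the table, and placed 7 under an adjusted p of 0.05. The shares of all genes under the unadjusted rule and in DESeq2 were not computed, so these member counts have no background to be read against. In bulk RNA, fewer mitochondria or fewer copies of their genome cannot be told apart from less RNA per genome.

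Complex I is the entry point for electrons from NADH, and its mitochondrial subunits form part of the proton-pumping membrane arm. MT-ND1 was 3918, 3617 and 3438 CPM in NC and 2722, 2891 and 3006 CPM in si-EIF5A2. MT-ND4 was 7327, 7142 and 6593 CPM in NC and 5571, 5435 and 5873 CPM in si-EIF5A2. Every si-EIF5A2 library lay below every NC library for both genes. MT-ND1 fell by 0.35 on the log2 scale (SE 0.07, edgeR adjusted p = 0.00751) and MT-ND4 by 0.32 (SE 0.07, edgeR adjusted p = 0.00713).

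MT-ND2, another pump subunit, was 4219, 4488 and 3981 CPM in NC and 3424, 3694 and 3665 CPM in si-EIF5A2, without overlap, with a log2 fold change of -0.23 (SE 0.07, edgeR adjusted p = 0.0317). Its call depended on single libraries. The edgeR adjusted p was 0.0701 without NC replicate 1, 0.130 without NC replicate 2, 0.0946 with si-EIF5A2 replicate 1 left out and 0.0703 with si-EIF5A2 replicate 3 left out. MT-ND3, the shortest member, was 929, 990 and 792 CPM in NC and 637, 772 and 761 CPM in si-EIF5A2. These groups did not overlap either, but the test was narrowly missed (log2 fold change -0.32, SE 0.11, edgeR adjusted p = 0.0525). It was passed without NC replicate 3 (-0.42, edgeR adjusted p = 0.0220) and under 5 of the other settings tried, among them DESeq2 (adjusted p = 0.0466).

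MT-ND5, a distal pump subunit, was 1894, 1920 and 1839 CPM in NC and 1753, 1728 and 1922 CPM in si-EIF5A2. MT-ND6 was 484, 446 and 420 CPM in NC and 396, 407 and 514 CPM in si-EIF5A2. In both genes si-EIF5A2 replicate 3 was the highest of all 6 libraries, and the other 2 si-EIF5A2 libraries were below the NC range. Neither passed the edgeR test (MT-ND5 log2 fold change -0.07, SE 0.07, adjusted p = 0.506; MT-ND6 -0.04, SE 0.11, adjusted p = 0.836). MT-ND5 was -0.12 without si-EIF5A2 replicate 3 and -0.04 when replicate 2 of that group was left out, and passed in neither. Without si-EIF5A2 replicate 3 the value for MT-ND6 was -0.17, and without NC replicate 1 it was 0.02. Whether the libraries kept strand is not stated in the sources used here. The MT-ND5 mRNA is known to run on across MT-ND6 in antisense, so counts given to MT-ND6 may come from either strand and cannot be told apart.

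Complex III passes electrons from ubiquinol to cytochrome c, and cytochrome b is its one mitochondrially encoded subunit. MT-CYB was 5726, 5698 and 5378 CPM in NC and 4434, 4461 and 4576 CPM in si-EIF5A2. The si-EIF5A2 libraries lay close together and well under the NC range, and MT-CYB fell by 0.32 on the log2 scale (SE 0.06, edgeR adjusted p = 0.00386).

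Complex IV is cytochrome c oxidase, which reduces oxygen to water. MT-CO1, its main catalytic subunit, was 14504, 13981 and 13021 CPM in NC and 11675, 11500 and 11684 CPM in si-EIF5A2. MT-CO2, which takes electrons from cytochrome c, was 6318, 6443 and 6381 CPM in NC and 5021, 5182 and 4964 CPM in si-EIF5A2. MT-CO3, the third core subunit, was 6923, 6456 and 6250 CPM in NC and 5228, 5257 and 5400 CPM in si-EIF5A2. None of the 3 genes had overlapping groups. The falls on the log2 scale were 0.25 for MT-CO1 (edgeR adjusted p = 0.0139), 0.34 for MT-CO2 (0.00231) and 0.31 for MT-CO3 (0.00656), each with an SE of 0.06. MT-CO1 missed the adjusted threshold without NC replicate 2 (edgeR adjusted p = 0.0550).

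**Figure D2:**
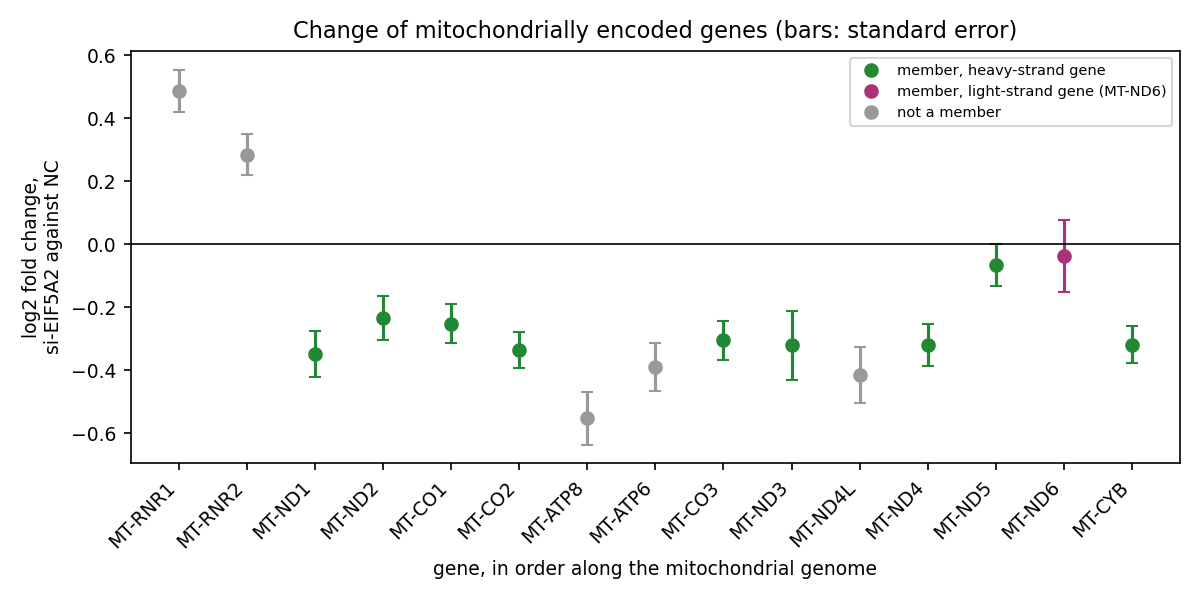
log2 fold change of si-EIF5A2 against NC with its standard error for the protein and rRNA genes in order along the mitochondrial genome. The green and purple members lie between -0.35 and -0.04, MT-ND5 and MT-ND6 are nearest to 0, and the 2 rRNA genes at the left are above 0.

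As a share of all counts, the 10 members took 5.14%, 5.13% and 4.82% in NC and 4.13%, 4.07% and 4.29% in si-EIF5A2. The groups did not overlap, with means of 5.03% ± 0.18 (SD, n = 3) and 4.16% ± 0.11 (SD, n = 3). A 2-sided exact permutation test gave p = 0.1, the smallest that 3 against 3 libraries allow.

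Within the members, the shares of complexes I and IV overlapped between the groups. Complex I genes took 35.9% ± 0.43 of the members' counts in NC and 36.3% ± 0.84 in si-EIF5A2, and complex IV genes 53.0% ± 0.42 and 52.9% ± 0.82 (SD, n = 3). Their exact permutation tests gave p = 0.6 and p = 0.9, and the sign of either difference turned without si-EIF5A2 replicate 3. MT-CYB was 11.1% ± 0.12 in NC and 10.8% ± 0.03 in si-EIF5A2, without overlap (exact permutation p = 0.1, 0.3 after adjustment over the 3 complexes). With the counts of nuclear copies added to each member, its share differed by -0.10 percentage points and the groups overlapped (exact permutation p = 0.4).

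Relative to the other members, MT-ND5 and MT-ND6 stood higher in the si-EIF5A2 libraries. The log2 ratio of MT-ND5 to the 8 other heavy-strand members was -4.72, -4.67 and -4.64 in NC and -4.47, -4.50 and -4.38 in si-EIF5A2, a difference of 0.23. That of MT-ND6 to the 9 heavy-strand members was -6.74, -6.83 and -6.83 in NC and -6.67, -6.65 and -6.35 in si-EIF5A2, a difference of 0.24. In both ratios the si-EIF5A2 libraries lay above the NC libraries, and each exact permutation test gave p = 0.1, the smallest possible. Only the MT-ND6 ratio was planned. The MT-ND5 ratio was not, and MT-ND5 stood out in these same values, so its test adds no separate evidence. Without si-EIF5A2 replicate 3 the difference for MT-ND6 was 0.13.

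Against each other, MT-ND6 and MT-ND5 kept overlapping ratios, at -2.07 ± 0.09 in NC and -2.05 ± 0.13 in si-EIF5A2 (log2, SD, n = 3, exact permutation p = 0.7). The sign of that difference turned without NC replicate 3 or without si-EIF5A2 replicate 3.

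An edgeR fit with the members' summed counts as the library size, added after the data were seen, gave each member's change relative to the members' total, which includes the member itself. MT-ND5 was higher by 0.22 (SE 0.07, edgeR adjusted p = 0.0353). MT-ND5 had already stood out in these same counts, so this test too adds no separate evidence. In that fit 31.1% of all genes were higher and 11.2% lower at an adjusted p under 0.05, and the median of all genes stood at 0.27, so the value for MT-ND5 is relative to the members alone. The call was lost without NC replicate 1 (adjusted p = 0.0935), NC replicate 2 (0.107), si-EIF5A2 replicate 1 (0.0799) or si-EIF5A2 replicate 3 (0.121). MT-ND6 was higher by 0.24 but missed the test (SE 0.10, edgeR adjusted p = 0.0877). The remaining 8 members lay between -0.07 and 0.05 and did not pass.

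**Figure D3:**
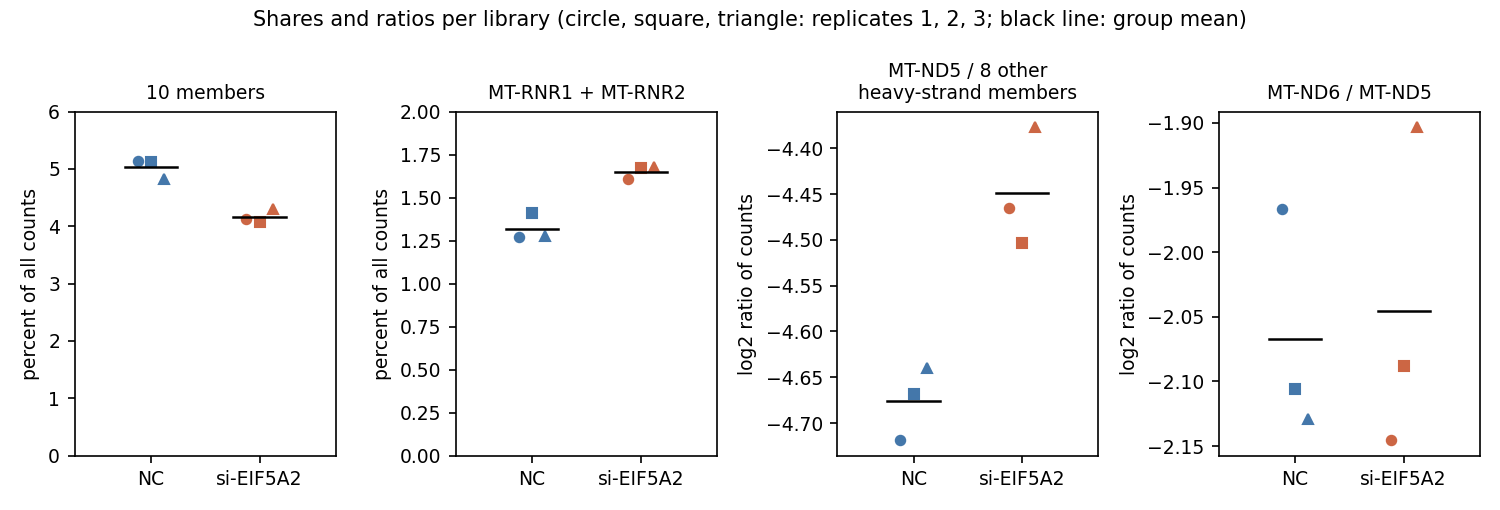
Shares of all counts (percent, axis from 0) taken by the 10 members and by the 2 mitochondrial rRNAs, and log2 ratios of MT-ND5 to the 8 other heavy-strand members and of MT-ND6 to MT-ND5, with 1 point per library and a line at the group mean. Groups separate in the first 3 panels, downward for the members and upward for the rRNAs and MT-ND5, and overlap in the last.

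The other genes of the same genome did not move as one. MT-ND4L, which overlaps MT-ND4 and codes for a complex I subunit, fell by 0.41 on the log2 scale (SE 0.09, edgeR adjusted p = 0.00759). The ATP synthase genes MT-ATP6 and MT-ATP8, which overlap each other, fell by 0.39 (edgeR adjusted p = 0.00476) and 0.55 (0.00146). The value of MT-ATP6 is uncertain, since its nuclear copy MTATP6P1 held 1260, 1273 and 1195 CPM in NC and 942, 935 and 0.0208 CPM in si-EIF5A2, beside 1802, 1752 and 1584 CPM and 1236, 1346 and 1340 CPM for MT-ATP6. With the copy's counts added, chosen after seeing the data, MT-ATP6 was -0.61 and missed the test (SE 0.20, edgeR adjusted p = 0.0549), and without si-EIF5A2 replicate 3 it was -0.41 (edgeR adjusted p = 0.0106). How fragments were divided between the gene and the copy is not given in the sources used here. Counts of overlapping genes are estimates, since a fragment in the overlap fits both.

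The ribosomal RNAs went the other way. MT-RNR1, the small-subunit rRNA, was 1795, 1836 and 1752 CPM in NC and 2349, 2584 and 2613 CPM in si-EIF5A2 and rose by 0.49 (SE 0.07, edgeR adjusted p = 0.000912). MT-RNR2, the large-subunit rRNA, was 11130.1, 12240.4 and 10960.1 CPM in NC and 13539, 14360.0 and 13921 CPM in si-EIF5A2 and rose by 0.28 (SE 0.07, edgeR adjusted p = 0.0106). The groups did not overlap for either, and their summed share was 1.32% ± 0.08 in NC and 1.65% ± 0.04 in si-EIF5A2 (SD, n = 3). Relative to the 10 members, the rRNAs were higher in si-EIF5A2 by 0.60 on the log2 scale (exact permutation p = 0.1, the smallest possible). All 37 genes of the mitochondrial genome together took 6.86% ± 0.26 of counts in NC and 6.20% ± 0.14 in si-EIF5A2.

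RNAs that lack a poly(A) tail are kept poorly by an mRNA library. Their summed level was 3.79 to 5.40 CPM in NC and 7.14 to 22.8 CPM in si-EIF5A2 over 15 listed RNAs, 5 of which were at 0 in every library. Without RN7SK, a choice made after seeing the data, the sums overlapped, at 3.38 to 4.47 CPM in NC and 2.66 to 14.9 CPM in si-EIF5A2, with si-EIF5A2 replicate 1 the lowest of all 6 libraries. Of the 6 tested, RN7SK (log2 fold change 3.35, edgeR adjusted p = 0.000387) and SNORD3A (2.38, edgeR adjusted p = 0.0196) were called higher and 0 were called lower, where 11.1% of all genes were called higher. The other 4 (RN7SL1, RN7SL2, RPPH1 and SNORA73B) did not pass. SNORD3A was 0.219, 0.0847 and 0.319 CPM in NC, where 3 fragments correspond to 0.152, 0.156 and 0.235 CPM, so the size of its fold is imprecise. The call of SNORD3A was lost without NC replicate 1 (adjusted p = 0.0541), si-EIF5A2 replicate 2 (0.0683) or si-EIF5A2 replicate 3 (0.0631). RNAs kept in the nucleus summed to 42.3 to 60.4 CPM in NC and 41.6 to 76.0 CPM in si-EIF5A2, with overlapping groups. The highest sum was in si-EIF5A2 replicate 3, which also held the highest MT-ND5 and MT-ND6. The part of this difference in the rRNA or member values was not tested.

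Some nuclear stretches are near-identical copies of the members. By symbol, 350 nuclear copies are annotated, and how closely they match was computed for only a few of them. For 8 members the copies held at most 0.541% of the member's own counts in any library. The exceptions were MT-CO1, whose copies held 0.387% to 4.88%, and MT-ND2, with 3.23% to 17.2%. Nearly all of this was in MTCO1P12 (chr1:631074-632616) and MTND2P28 (chr1:629640-630683), which match 98.7% of MT-CO1 and 98.4% of MT-ND2 in the GRCh38 build.

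For each pair, a 30-base stretch with the most differences is shown, because a read must be told apart by such bases. Along the whole alignment, MTCO1P12 differs from MT-CO1 at 20 of 1542 bases and MTND2P28 from MT-ND2 at 17 of 1042. The differing bases are in capitals (plus strand, GRCh38, at chrM:6213-6242 and chr1:631383-631412, then chrM:5469-5498 and chr1:630639-630668).
MT-CO1: ctcttaccTccctctctcctactcctgctC
MTCO1P12: ctcttaccCccctctctcctactcctgctT
MT-ND2: acGctActcctacctatctccccttttatA
MTND2P28: acActGctcctacctatctccccttttatG
Of the windows of 150 bases, the read length, 202 of 1394 in MTCO1P12 and 140 of 895 in MTND2P28 occur unchanged in the member.

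MTCO1P12 was 707, 594 and 588 CPM in NC and 233, 44.5 and 52.3 CPM in si-EIF5A2. MTND2P28 was 586, 456 and 686 CPM in NC and 288, 119 and 259 CPM in si-EIF5A2. Both copies were lower in each si-EIF5A2 library than in any NC library. MTCO1P12 missed the test with a log2 fold change of -2.52 (SE 0.75, edgeR adjusted p = 0.0545), and passed without si-EIF5A2 replicate 1 (-3.71, edgeR adjusted p = 4.8e-05). MTND2P28 passed at -1.37 (SE 0.37, edgeR adjusted p = 0.0370), but not without NC replicate 1 (0.105), NC replicate 2 (0.0643), NC replicate 3 (0.106) or si-EIF5A2 replicate 3 (0.0821).

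How the authors' counting divided fragments between a member and its copy is not given in the sources used here, so the values of MT-CO1 and MT-ND2 are less certain than those of the other members. With the copies' counts added to their member, an alternative chosen after seeing the data, MT-ND2 fell by 0.33 on the log2 scale (edgeR adjusted p = 0.00330) and MT-CO1 by 0.30 (edgeR adjusted p = 0.00641). Both values then lay nearer to the median of the members.

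**Figure D4:**
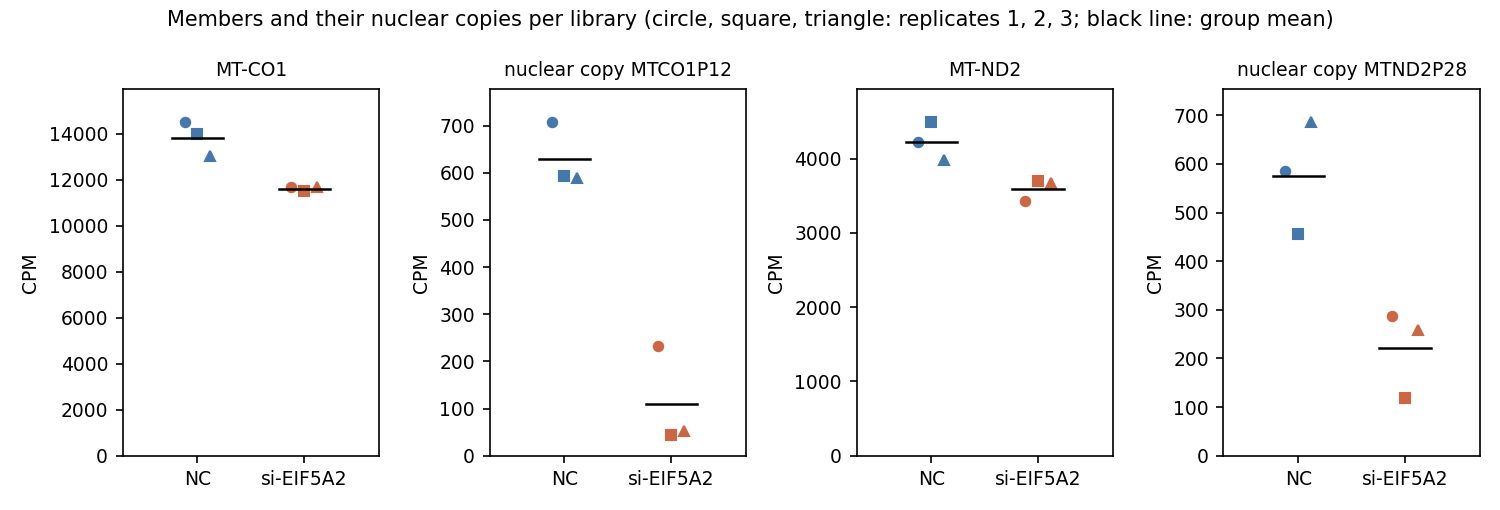
CPM (axes from 0) of MT-CO1 and MT-ND2 and of their most abundant nuclear copies in each library, with a black line at the group mean. The copies are far below their member and lower in every si-EIF5A2 library than in every NC library.

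Nuclear genes that act on the mitochondrial genome were read from lists written by hand, and called by the same stricter rule. Among all genes tested, 11.1% were called higher and 13.6% lower. At an adjusted p under 0.05 with no fold limit, 18.0% of all genes were higher and 18.9% lower. In the list for transcription of mitochondrial DNA, 1 of 9 genes was called, and with no fold limit 1 was higher and 1 lower. TFAM, which packages mitochondrial DNA and binds its promoters, was 68.4, 72.1 and 71.3 CPM in NC and 22.1, 19.0 and 23.0 CPM in si-EIF5A2. TFAM fell to 30.2% of NC (log2 fold change -1.73, SE 0.10, edgeR adjusted p = 1.29e-05), without overlap.

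The mitochondrial RNA polymerase POLRMT (log2 fold change -0.16, edgeR adjusted p = 0.456) and the elongation factor TEFM (0.41, edgeR adjusted p = 0.105) did not pass. POLRMT was -0.02 without NC replicate 1, -0.06 with si-EIF5A2 replicate 1 left out and -0.27 with si-EIF5A2 replicate 2 left out. TEFM was 0.56 (edgeR adjusted p = 0.0412) without NC replicate 3. The initiation factor TFB2M was higher by 0.39 (edgeR adjusted p = 0.0257), under the fold limit, and its adjusted p was 0.0749 without NC replicate 1, 0.0837 without NC replicate 2, 0.0795 with si-EIF5A2 replicate 1 left out and 0.0848 with si-EIF5A2 replicate 3 left out. The rRNA methyltransferase TFB1M (-0.06) and MTERF1 to MTERF4 (-0.21, 0.45, 0.21 and 0.46) did not pass either. The median of the list was 0.21.

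In the list for replication and maintenance of mitochondrial DNA, 2 of 17 genes were called higher and 3 lower, with a median of -0.13. With no fold limit, 3 were higher and 6 lower at an adjusted p under 0.05. The nuclease and helicase DNA2 fell by 1.79 on the log2 scale (edgeR adjusted p = 0.000912) and RNASEH1, which removes RNA from RNA-DNA hybrids, by 0.80 (0.000478). TOP1MT, the mitochondrial topoisomerase, rose by 0.87 (edgeR adjusted p = 0.000122) and RRM2B, a ribonucleotide reductase subunit, by 0.66 (0.000272). DNA2, RNASEH1 and RRM2B also serve the nuclear genome.

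Of 29 genes for processing, polyadenylation and decay of mitochondrial RNA, 0 were called higher and 2 lower, with a median of -0.15. With no fold limit, 3 of the 29 were higher and 10 lower at an adjusted p under 0.05. Over all genes these shares were 18.0% and 18.9%. MRM1, which methylates the large-subunit rRNA, fell by 1.69 on the log2 scale (edgeR adjusted p = 0.000487). PTCD2, a pentatricopeptide protein linked to MT-CYB RNA maturation, fell by 0.65 (edgeR adjusted p = 0.0364), but its adjusted p was 0.0868 without NC replicate 2, 0.114 without NC replicate 3, 0.0857 with si-EIF5A2 replicate 2 left out and 0.0534 with si-EIF5A2 replicate 3 left out. Of 19 mitochondrial translation factors and activators, 1 was called higher and 0 lower, with a median of -0.04. With no fold limit, 2 of the 19 were higher and 3 lower. MTRF1L, a release factor, rose by 0.72 (edgeR adjusted p = 0.0118), and by 0.54 without NC replicate 1, under the fold limit.

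Of 17 nuclear regulators of mitochondrial biogenesis, 1 was called higher and 4 lower, with a median of -0.25. With no fold limit, 1 was higher and 5 lower at an adjusted p under 0.05. The deacetylase SIRT1 fell by 1.22 on the log2 scale (edgeR adjusted p = 0.000252). PRKAA1 and PRKAA2, the alternative catalytic subunits of AMP-activated kinase, went opposite ways, with a fall by 1.01 (edgeR adjusted p = 0.000151) and a rise of 0.82 (0.00271).

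The nuclear subunits that assemble with the members were read complex by complex. Of 37 nuclear complex I genes, 2 were called higher and 0 lower, with a median of -0.03. With no fold limit, 7 were higher and 5 lower at an adjusted p under 0.05. The accessory subunit NDUFA8 was 185.6% of NC (log2 fold change 0.89, SE 0.08, edgeR adjusted p = 9.47e-05). Of 9 nuclear complex III genes, 0 were called higher and 3 lower, with a median of -0.25. With no fold limit, 1 was higher and 4 lower. The core subunits UQCRC1 and UQCRC2 were at 45.2% and 44.1% of NC (log2 fold change -1.15 and -1.18, edgeR adjusted p = 0.000101 and 4.36e-05), beside 80.2% for MT-CYB. None of the 12 nuclear complex IV genes tested, nor of the 4 complex II genes, was called in either direction, with medians of 0.04 and 0.08. At an adjusted p under 0.05 with no fold limit, edgeR had 1 nuclear complex IV gene higher and 2 lower, and 1 complex II gene higher.

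**Figure D5:**
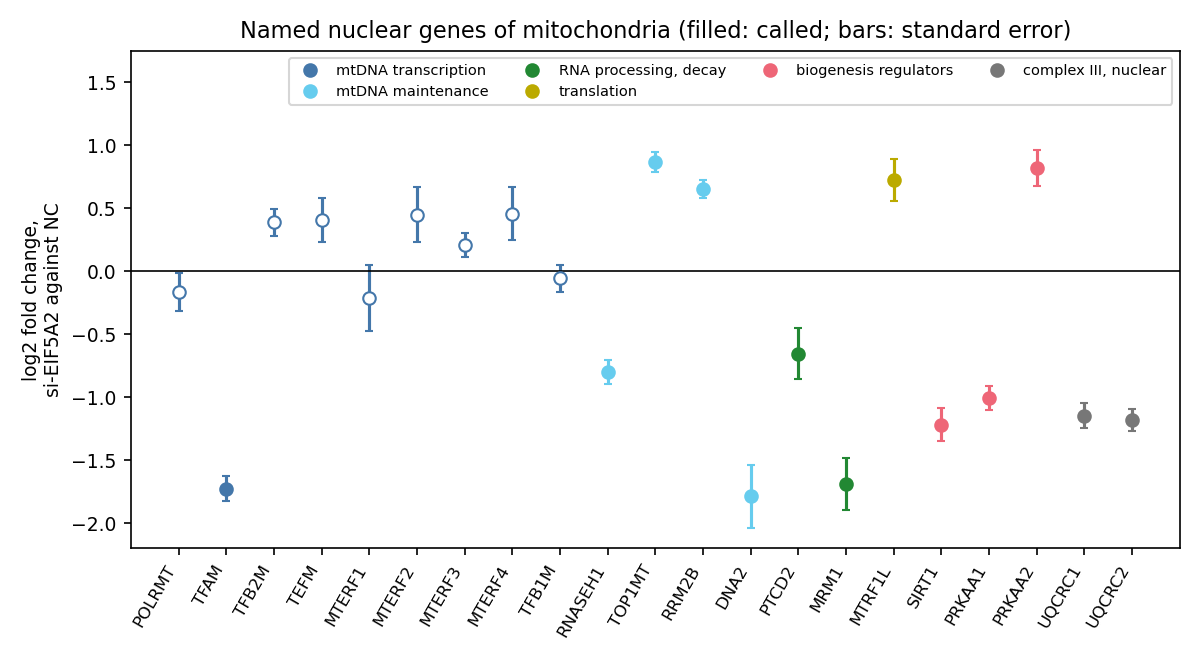
log2 fold change of si-EIF5A2 against NC with its standard error for named nuclear genes of 6 of the lists, coloured by list, filled where called and open where not. TFAM, DNA2 and MRM1 lie below -1.6, while TOP1MT and PRKAA2 lie above 0.8.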

How the data were processed

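RNA from 3 NC and 3 si-EIF5A2 libraries of SKOV3 cells was measured, with groups and replicate numbers taken from the labels. The authors prepared paired-end mRNA libraries, used StringTie and ballgown for quantification, and deposited whole-number estimated counts of each gene, without normalization. The submitters' processing notes list Bowtie 0.12.2 and mouse genome builds, while the human build, annotation and library strandedness are not given in the sources used here. The low values step by about 3.69 counts, so 1 fragment is worth several counts. The fit had been planned for counts, and since the estimates were already whole, rounding changed nothing. The 6 columns were matched by name, with 0 left over.

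The groups were compared in edgeR 4.0.16 under R 4.3.3: filterByExpr, TMM (factors 0.985 to 1.01), robust quasi-likelihood fits with group as the term, and p-values adjusted by Benjamini-Hochberg over 16208 genes. Variation between libraries of a group, which may be technical, was 0.261 as edgeR's common coefficient. Exact permutation tests were 2-sided. Those of MT-ND5 to the other heavy-strand members, of MT-ND6 to MT-ND5 and of the rRNAs to the members were not in the plan. DESeq2 1.42.0, other normalizations and filters, a replicate block and leaving out each library were alternatives. Positions and sequences were from GENCODE release 29 (GRCh38), which held 58552 of the 58825 identifiers. On counts simulated for this comparison with 15716 genes, edgeR recovered 73% of genes changed 4-fold and 44% of those changed 2-fold, and 4.88% of its calls were false. DESeq2, run on 16208 genes of the same simulation, recovered 82% and 55%, and 27.9% of its calls were false. Changes as small as those of the members were not simulated. By the same rule edgeR called 123 genes in the simulation and 3992 in the data, so these rates may not hold for the data.

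The members and gene lists were chosen with earlier results of these data known. The genes named were EIF5A2, the members, the other protein and rRNA genes of the mitochondrial genome, all tested genes of the transcription list, in the other lists of mitochondrial genes the called genes with the largest changes (at most 2 in each direction), the 2 nuclear copies with the most counts, and the 5 genes with the profile most like that of the summed members. RN7SK, SNORD3A, the tRNAs, MTATP6P1 and the marker genes were named after their values were seen. 1 gene that the rule names is not reported here.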

Additional observations from a re-analysis of the deposited data

How the results depend on the processing

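Counts of calls depended on the threshold. Genes called were 3992 with the fold limit of 1.5, and 2370 at an unadjusted p under 0.05 with a fold change over 2. Called members numbered 0, or 7 with no fold limit. Called genes of the nuclear lists numbered 19, or 56 with no fold limit and 9 with the 2-fold rule. Over all genes tested, 24.6% were called with the fold limit and 36.9% with no fold limit. The number tested over all lists together is not given, so these list counts are not read as a result about those genes. Leaving out each library gave 3638 to 3907 genes called, 0 members called, 5 to 8 members lower at an adjusted p under 0.05, and 18 to 21 called list genes. The share of all genes lower was 18.9% in the main fit and was not computed for the alternatives. No replicate number paired the samples: the deviations of same-numbered libraries correlated at -0.0244, 0.0052 and -0.0027. With the replicate number as a block, 3731 genes were called and 6 members were lower at an adjusted p under 0.05, MT-ND2 being lost (edgeR adjusted p = 0.0683).

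MT-ND2 was also lost with DESeq2 (adjusted p = 0.0600), and MT-ND3 passed with DESeq2 (0.0466), with at least 10 counts in every library (0.0381), with no filter (0.0327), with counts divided by their step, added after seeing the data (0.0421), and with mitochondrial genes left out of the scaling (0.0478). The causes were not tested. MT-ND6 changed sign without NC replicate 1 (0.017), si-EIF5A2 replicate 1 (0.024) or si-EIF5A2 replicate 2 (0.015), within a leave-one-out range of -0.17 to 0.024, and TFB1M without NC replicate 3 (0.0049), within -0.13 to 0.0049. Leaving out libraries moved the difference of MT-ND6 to MT-ND5 from -0.049 to 0.072, with -0.0091 without NC replicate 3. The complex I share moved from -0.112 to 0.719 percentage points, and the complex IV share from -0.425 to 0.382, with 0.114 without NC replicate 3. The differences kept their sign for the members' share (-0.969 to -0.809 percentage points), MT-ND6 (0.134 to 0.298) and MT-ND5 (0.191 to 0.254) relative to the heavy-strand members, and the rRNAs relative to the members (0.555 to 0.632). MT-ND1, MT-ND4, MT-CYB, MT-CO2 and MT-CO3 passed in all 15 alternatives run for each. Of the normalization, filter and tool alternatives, none moved the median of all genes by 0.1 or more on the log2 scale. With the block PTCD2 (edgeR adjusted p = 0.0515), SNORD3A (0.0507) and TFB2M (0.0574) also missed the adjusted threshold.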

Other observations

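The mitochondrial tRNA genes, which separate the members along the genome, were mostly low. MT-TS1 was 0.211 CPM in si-EIF5A2 replicate 2, where 3 fragments correspond to 0.212 CPM. Whether these counts come from cut tRNAs or from longer precursors cannot be told from them. All 22 were tested, 19 had a negative log2 fold change, and the median was -0.34, against -0.01 over all genes tested. At an adjusted p under 0.05 in edgeR, 4 of the 22 were lower and 0 higher, where 18.9% of all genes tested were lower. MT-TF, at the start of the heavy-strand transcript, fell by 0.77 on the log2 scale (edgeR adjusted p = 0.00403), and MT-TI by 0.62 (0.0132). MT-TL1, just after the rRNAs, fell by 0.41 (edgeR adjusted p = 0.0221), and MT-TC by 0.35 (0.0387). MT-TL1 lost the threshold without NC replicate 1 (0.0539), NC replicate 2 (0.0515), si-EIF5A2 replicate 2 (0.0633) or si-EIF5A2 replicate 3 (0.0697), and MT-TC without NC replicate 1 (0.101), NC replicate 2 (0.135), si-EIF5A2 replicate 1 (0.110) or si-EIF5A2 replicate 3 (0.0932).

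The nuclear copy MTATP6P1, close to MT-ATP6 in sequence, held 91948, 90205 and 56194 counts in NC and 48141, 48814 and 1 counts in si-EIF5A2. The single count was in si-EIF5A2 replicate 3. Of 532 windows of 150 bases in this copy, 0 occur unchanged in MT-ATP6.

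The 5 genes whose log2 CPM followed the summed members most closely over the 6 libraries were MELTF, GPR137, ADGRG1, GATD3 and ZSCAN2, with root-mean-square differences of 0.0203 to 0.0356 on the log2 scale. A difference within 0.1 was found for 3.12% of all genes tested.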
